A study of Mus musculus with 48 samples.

Results

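The 8 genes described here belong to the insulin-like growth factor (IGF) system: the ligand Igf1, the receptors Igf1r and Igf2r, and the binding proteins Igfbp2, Igfbp3, Igfbp4, Igfbp5 and Igfbp7. They are defined by gene symbol and not by a threshold on their values. All 8 were found among the 22173 genes of the count table of gonadal somatic cells (GSCs), among the 13682 genes of the FPKM table and, by Ensembl identifier, among the 32285 genes of the 10x table. The study compared somatic cells of the mouse gonad with GSC-like cells (GSCLCs) that small molecules induced from female embryonic stem cells (ESCs). All mice and ESCs were of the C57BL/6 strain by the labels. The counts came from gonads labelled female at embryonic days E12.5, E13.5 and E16.5 and from the ovary at 6 weeks after birth (P6w), with 2 libraries per stage. The FPKM values came from cells under V580 on days 4, 6, 8 and 10 (V580_D4 to V580_D10, below D4 to D10, with 3 libraries each), from E12.5 female gonads (E12.5_GC, 3 libraries) and from ESC-derived cells after 24 h or 48 h in the groups Con (the control), Vc, AM580 and V580 (2 libraries each).

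Vc is vitamin C, AM580 is a synthetic agonist of the retinoic acid receptor alpha, and V580 is the study's name for both together. The methods state that SSEA1-positive cells, which include germ cells and ESCs, were removed on magnetic columns from E12.5 gonads and from GSCLCs meant for aggregation, and that feeder cells were removed by their faster adherence before induction. Whether each sequenced library of induced cells was depleted in this way is not given in the sources used here. The samples are cell mixtures, and in bulk libraries fewer cells of a type and less RNA per cell cannot be told apart. No label says that replicates came from separate animals or cultures, so the p values measure the spread between these libraries, which may be technical. A 10x table of V580 cells on day 6 gave levels by cluster of cells. The study describes the 10x experiment as made in triplicate, but 1 sample was analysed here, its barcodes carry no mark of a replicate, and whether it pools replicates is not known.

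IGF1 is a secreted peptide that signals through IGF1R, a receptor tyrosine kinase upstream of the PI3K-AKT and MAPK pathways. IGF2R has no kinase: it binds IGF2 and carries it to the lysosome, and it also sorts lysosomal enzymes. The classical IGF-binding proteins, of which IGFBP2 to IGFBP5 are examples, hold IGFs with high affinity outside the cell, and proteases such as PAPPA and PAPPA2 release the ligand by cleaving some of them. IGFBP7 binds IGFs only weakly. In the ovary the IGF system is known for its part in the growth of follicles, where granulosa cells respond to IGF together with follicle-stimulating hormone.

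In the GENCODE vM21 annotation of GRCm38, the assembly that mm10 denotes, all 8 are protein-coding. Igf1 lies at chr10:87858265-87937042 (plus strand), Igf1r at chr7:67952827-68233668 (plus) and Igf2r at chr17:12682406-12769664 (minus). The binding protein genes lie at chr1:72824503-72852474 (Igfbp2, plus), chr11:7206086-7213923 (Igfbp3, minus), chr11:99041244-99054392 (Igfbp4, plus), chr1:72857932-72874884 (Igfbp5, minus) and chr5:77349240-77408041 (Igfbp7, minus). Igfbp2 and Igfbp5 are neighbours that point towards each other, with 5457 bases between their ends. Merged exons range from 1209 bases in Igfbp7 to 16791 in Igf1r. Igf1, Igf2r and Igfbp7 each overlap an antisense gene (Igf1os, Airn and Gm34648), and the end of Igfbp7 overlaps Polr2b on the opposite strand. The strand setting of the counting is not given in the sources used here, so reads from these overlaps cannot be told apart.

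The sequences upstream of 4 binding protein genes are shown because comparisons described below turn on these genes. The neighbours Igfbp2 and Igfbp5 moved in opposite directions between E13.5 and E16.5. Among the members, Igfbp4 ran closest to Igfbp5 over the FPKM libraries, and among the binding proteins Igfbp3 differed most between D4 and D6. The sequences were taken from RefSeq on GRCm38.p6 and are written 5′ to 3′ on the strand of the gene, ending just before the RefSeq start. That of Igfbp5 ends earlier, just before the GENCODE start, which lies upstream of the RefSeq start. They cover chr1:72824230-72824479 (plus strand), chr1:72874885-72875115 (minus strand), chr11:99040994-99041243 (plus strand) and chr11:7213924-7214173 (minus strand). Capitals mark the letters of a TATA box, a CAAT box or a GC box, on either strand.
Igfbp2: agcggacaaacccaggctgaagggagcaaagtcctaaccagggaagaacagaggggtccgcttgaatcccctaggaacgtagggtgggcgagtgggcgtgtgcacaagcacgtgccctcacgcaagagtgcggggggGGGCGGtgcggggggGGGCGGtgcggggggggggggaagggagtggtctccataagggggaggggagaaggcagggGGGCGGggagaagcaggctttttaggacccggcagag
Igfbp5: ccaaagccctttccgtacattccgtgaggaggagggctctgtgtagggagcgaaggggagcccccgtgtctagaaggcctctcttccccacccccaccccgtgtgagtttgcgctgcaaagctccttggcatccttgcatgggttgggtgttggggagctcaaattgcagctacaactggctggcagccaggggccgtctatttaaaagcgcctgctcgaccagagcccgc
Igfbp4: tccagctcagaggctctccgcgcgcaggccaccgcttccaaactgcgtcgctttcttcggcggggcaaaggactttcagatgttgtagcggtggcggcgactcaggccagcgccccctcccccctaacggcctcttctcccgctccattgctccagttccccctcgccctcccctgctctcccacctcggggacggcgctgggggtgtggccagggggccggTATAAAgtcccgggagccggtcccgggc
Igfbp3: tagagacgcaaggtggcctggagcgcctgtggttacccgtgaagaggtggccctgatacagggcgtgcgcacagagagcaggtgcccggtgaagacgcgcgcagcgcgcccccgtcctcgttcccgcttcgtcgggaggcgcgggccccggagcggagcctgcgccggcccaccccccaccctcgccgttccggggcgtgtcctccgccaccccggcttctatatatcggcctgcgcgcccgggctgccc
Within 250 bases upstream of the start, the TATA box letters (TATAAA) were found, on either strand, in 12.4% of 32851 RefSeq promoters and, of the members, in Igfbp4. The GC box letters, spelled GGGCGG, were found in 32.7% of promoters and in Igf1r, Igf2r, Igfbp2 and Igfbp7, and the core of the CAAT box in 33.8% and in Igf1. The letters AGGTCA, the core word of retinoic acid receptor elements, were found in 14.0% of promoters and upstream of Igf1, Igf1r and Igf2r. As a direct repeat with 2 or 5 bases between the copies, they were found in 0.00913% of promoters each and in no member. These windows end just before the RefSeq start, and that of Igf1 lies within the gene by the GENCODE annotation. A match of letters is a description and not a site of binding.

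The count libraries summed to 12694769 to 22259044 counts. The sum of 6 granulosa markers was 997 to 2060 CPM (counts scaled to the normalized library total), and none of them was at 0. The sum of 4 Y-linked genes was 8.4 to 9.5 CPM in the E12.5 libraries, labelled female, and at most 0.254 CPM in the others. Every comparison of a stage with E12.5 therefore also differs in Y-linked transcripts, and the part of this in the members' differences was not tested. A code in the labels, whose meaning is not given, is L5 for E12.5, E13.5 and E16.5 replicate 1 and L1 for E16.5 replicate 2 and P6w. The E16.5 libraries also differed from each other more than the other pairs, with a chi-square per degree of freedom of 37.9, against 6.02 to 6.93. Among the FPKM libraries, E12.5_GC replicates 2 and 3 departed from their group with gene length, in opposite directions (Spearman correlations across genes of -0.647 and 0.634).

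In the developing gonad, Igf1r and Igfbp7 were highest at P6w, whereas Igfbp2, Igfbp3, Igfbp4 and Igfbp5 were lowest there. Levels are given in CPM, which do not compare genes of different length, and differences as log2 ± SE from edgeR's quasi-likelihood test with Benjamini-Hochberg adjustment. Igf1, the ligand, was at 83.0 and 82.0 (E12.5), 82.7 and 75.6 (E13.5), 172 and 140.5 (E16.5) and 170.4 and 198 (P6w). The libraries of E12.5 and E13.5 overlapped, as did those of E16.5 and P6w, with a step between. Igf1 rose from E13.5 to E16.5 (0.98 ± 0.13, adjusted p = 2.03e-05, edgeR). The differences of E13.5 from E12.5 (-0.06 ± 0.13, adjusted p = 0.734, edgeR) and of P6w from E16.5 (0.24 ± 0.13, adjusted p = 0.135, edgeR) did not pass the test. With a term for gene length in each library the former was 0.49 (adjusted p = 0.00498, edgeR).

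Igf1r, the signalling receptor, was at 63.2 and 68.2 (E12.5), 24.6 and 26.9 (E13.5), 81.0 and 81.3 (E16.5) and 209 and 196 (P6w) CPM. No stages overlapped, and E13.5 was the lowest. Igf1r fell from E12.5 to E13.5 (-1.35 ± 0.12, adjusted p = 2.72e-06, edgeR), rose to E16.5 (1.66 ± 0.12, adjusted p = 1.32e-07, edgeR) and rose again to P6w (1.32 ± 0.12, adjusted p = 2e-07, edgeR). It has the longest exons of the members, and the difference of E13.5 from E12.5 went with gene length over all genes (Spearman correlation of -0.494 across 16169 genes). With the length term, the fall to E13.5 was -0.49 (adjusted p = 0.0118, edgeR) and the rise to E16.5 0.87 (adjusted p = 0.000113, edgeR).

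Igf2r, which clears IGF2, shared the dip at E13.5 but not the peak at P6w. It was at 56.3 and 59.7 (E12.5), 28.7 and 31.6 (E13.5), 54.2 and 50.6 (E16.5) and 32.3 and 29.6 (P6w) CPM, with E13.5 and P6w overlapping and below E12.5 and E16.5. It fell to E13.5 (-0.94 ± 0.14, adjusted p = 7.36e-05, edgeR), rose to E16.5 (0.80 ± 0.14, adjusted p = 0.000187, edgeR) and fell to P6w (-0.76 ± 0.14, adjusted p = 0.000279, edgeR). With the length term, the rise to E16.5 no longer passed: 0.30 (adjusted p = 0.0716, edgeR). The ligand Igf2 had mean CPM of 977 ± 16.6 (E12.5, SD, n = 2), 1052 ± 8.48 (E13.5), 727 ± 101 (E16.5) and 6.37 ± 3.58 (P6w).

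**Figure D1:**
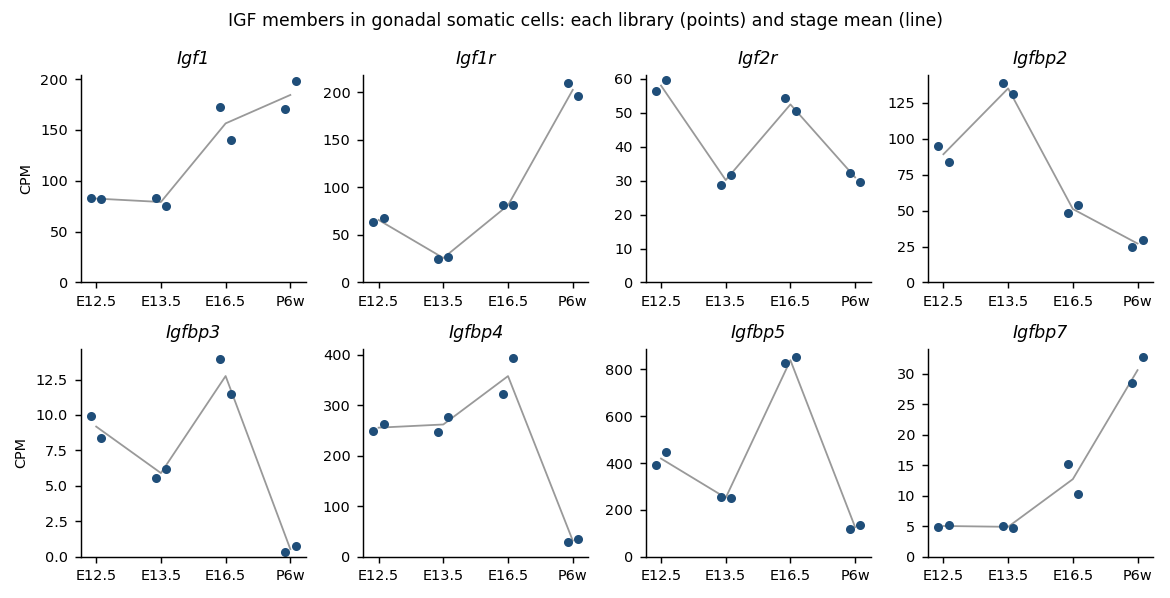
Expression of the 8 members in GSCs in CPM (vertical axes from 0) at 4 stages, with 2 libraries per stage as points and a line through the stage means. Igf1r and Igfbp7 were highest at P6w, while Igfbp3 had 4 and 9 counts in the P6w libraries.

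Igfbp5, a binding protein that attaches to extracellular matrix, was at 392 and 447 (E12.5), 253 and 250.4 (E13.5), 827 and 851 (E16.5) and 118 and 135 (P6w) CPM. It fell to E13.5 (-0.74 ± 0.12, adjusted p = 0.000158, edgeR), rose to E16.5 (1.74 ± 0.12, adjusted p = 7.01e-08, edgeR) and fell to P6w (-2.73 ± 0.13, adjusted p = 1.05e-10, edgeR). Its neighbour Igfbp2 went the other way over the earlier steps, at 94.9 and 83.8 (E12.5), 139 and 131 (E13.5), 48.1 and 54.2 (E16.5) and 24.8 and 29.4 (P6w) CPM. In neither gene did any stages overlap. Igfbp2 rose to E13.5 (0.60 ± 0.13, adjusted p = 0.00165, edgeR), fell to E16.5 (-1.40 ± 0.13, adjusted p = 1.02e-06, edgeR) and fell further to P6w (-0.91 ± 0.14, adjusted p = 4.9e-05, edgeR). Its rise at E13.5 was lost with the length term: 0.06 (adjusted p = 0.709, edgeR). The sum of 6 liver markers, none at 0 at E13.5, was 167 to 171 CPM there, 2.08 to 4.33 CPM at E12.5 and E16.5, and 123 to 133 CPM at P6w, where Alb and Ttr were at 0. That of 8 erythroid markers was 32400 to 35100 CPM at E13.5, 10600 to 15700 CPM at E12.5 and E16.5, and 264 to 294 CPM at P6w. Their part in the differences of E13.5 was not tested.

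Igfbp4, which PAPPA cleaves in ovarian follicles, was at 248 and 263 (E12.5), 248 and 276 (E13.5), 322 and 393 (E16.5) and 29.2 and 35.0 (P6w) CPM. It rose to E16.5 (0.45 ± 0.13, adjusted p = 0.00881, edgeR) and then fell 11.1-fold to P6w (-3.48 ± 0.15, adjusted p = 4.36e-11, edgeR). Without E13.5 replicate 1 the rise was 0.36 (adjusted p = 0.103, edgeR). Igfbp3, the main carrier of IGFs in adult plasma, was rare, with counts of 215 and 170 (E12.5), 110 and 109 (E13.5), 323 and 188 (E16.5) and 4 and 9 (P6w). In CPM these were 9.96 and 8.40 (E12.5), 5.59 and 6.22 (E13.5), 14.0 and 11.5 (E16.5) and 0.327 and 0.749 (P6w). Igfbp3 rose from E13.5 to E16.5 (1.11 ± 0.24, adjusted p = 0.00137, edgeR) and fell 23.5-fold to P6w (-4.56 ± 0.36, adjusted p = 4.07e-08, edgeR). Its fall from E12.5 to E13.5 (-0.64 ± 0.25, adjusted p = 0.0453, edgeR) rested on all 4 libraries: without any 1 of them the adjusted p was 0.0772 to 0.24 (edgeR), and with DESeq2 it was 0.0949.

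Igfbp7, known from vessels and stroma, was at 4.96 and 5.14 (E12.5), 5.03 and 4.79 (E13.5), 15.2 and 10.2 (E16.5) and 28.5 and 32.7 (P6w) CPM. It rose from E13.5 to E16.5 (1.38 ± 0.22, adjusted p = 0.000114, edgeR) and from E16.5 to P6w (1.26 ± 0.21, adjusted p = 0.000111, edgeR). E12.5 and E13.5 overlapped (-0.04 ± 0.23, adjusted p = 0.909, edgeR), although with the length term Igfbp7 was lower at E13.5: -0.76 (adjusted p = 0.0265, edgeR).

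In all, 5 of 8 members differed between E13.5 and E12.5, 1 higher and 4 lower. Of 16398 genes tested, 45.9% differed (23.8% higher, 22.1% lower). Between E16.5 and E13.5 all 8 differed, 7 higher and 1 lower, and 54.1% of genes did (28.7% and 25.4%). Between P6w and E16.5, 2 were higher and 5 lower, beside 56.1% of genes (26.3% and 29.8%). Between E16.5 and E12.5, 4 were higher and 1 lower, beside 37.6% of genes (20.5% and 17.1%). Between P6w and E12.5, 3 were higher and 5 lower, beside 52.9% of genes (25.4% and 27.5%). The members' median log2 difference was -0.35, 1.05, -0.84, 0.48 and -1.31 in this order. That of all genes lay between -0.04 and 0.06, where the normalization holds it near 0. The median absolute log2 difference of all genes was 0.568, 0.662, 0.691, 0.446 and 0.647. Over all genes, the differences of E13.5 from E12.5 and of E16.5 from E13.5 went with gene length (Spearman correlations of -0.494 and 0.335). The members' counts and medians given here are without a length term.

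Over the whole span from E12.5 to P6w, Igf1r was 3.08-fold, Igf1 2.23-fold and Igfbp7 6.06-fold higher at P6w, while Igfbp4 was 7.97-fold and Igfbp3 16.9-fold lower (adjusted p of 2.92e-06 or less, edgeR). Among libraries with the code L1, P6w against E16.5 replicate 2 gave Igf1 at 0.39, beside 0.24 with both E16.5 libraries. Among those with L5, E16.5 replicate 1 against E13.5 gave Igfbp4 at 0.30, beside 0.45. In both fits the lone E16.5 library was assumed to vary like the other groups, so only the sizes are given. Markers of other cells moved with the stages: 6 adult granulosa markers summed to 133 to 257 CPM before birth and 36200 to 36300 CPM at P6w, 5 theca and steroidogenic markers to 70.5 to 240 and 7510 to 7620 CPM, and 6 interstitial markers to 2650 to 2870 CPM at E16.5 and 318 to 847 CPM at the other stages. The sum of 6 endothelial markers was 215 to 222 CPM at E12.5, 104 to 138 CPM at E13.5 and E16.5 and 27.4 to 33.8 CPM at P6w. Fshr was at 0 in 4 of the libraries before birth, and no marker of the theca, interstitial or endothelial list was at 0. Their part in the members' differences was not tested.

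The other genes of the pathway were taken from a list of 43, of which 39 were tested. From E12.5 to E13.5, 4 of 39 rose and 19 fell, beside 23.8% and 22.1% of all genes tested. Igfbp6, a binding protein that prefers IGF2, was among the former (1.26 ± 0.20, adjusted p = 0.000172, edgeR). Irs2, an adaptor of the receptors, was among the latter (-2.49 ± 0.20, adjusted p = 1.16e-06, edgeR). From E13.5 to E16.5, 23 rose and 4 fell, beside 28.7% and 25.4% of all genes. Both steps went with gene length over all genes (Spearman correlations of -0.494 and 0.335 in this order), and these counts are without a length term. Htra3, a secreted serine protease, rose (2.53 ± 0.21, adjusted p = 2.78e-07, edgeR), and so did Irs2 (2.48 ± 0.20, adjusted p = 2.78e-07, edgeR). From E16.5 to P6w, 13 rose and 14 fell, beside 26.3% and 29.8% of all genes. Grb14, an adaptor that restrains insulin receptor signalling, rose (5.60 ± 0.20, adjusted p = 9.2e-12, edgeR) and Igf2 fell (-6.84 ± 0.26, adjusted p = 1.35e-11, edgeR).

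During V580 induction, the members called between neighbouring days were Igf1 and Igfbp3, higher on D6 than on D4, and Igfbp7, higher on D10 than on D8. Levels are given in FPKM, fragment counts scaled for transcript length and depth, and differences on log2(FPKM + 1) from limma, called at an adjusted p below 0.05 and at least 2-fold. Igf1 was at 0.399, 0.457 and 0.526 on D4, 9.37, 10.5 and 9.86 on D6, 14.0, 13.7 and 14.2 on D8 and 24.1, 26.4 and 23.0 on D10, each day above the one before without overlap. E12.5_GC was at 10.9, 8.56 and 12.3 FPKM, a range that held all 3 D6 libraries. Igf1 rose from D4 to D6 (2.90 ± 0.10, adjusted p = 1.74e-11, limma), which is 21.5-fold in mean FPKM. Against E12.5_GC it was lower on D4 (-2.97 ± 0.10, adjusted p = 1.09e-12, limma) and higher on D10 (1.15 ± 0.10, adjusted p = 6.82e-08, limma). On D6 the difference was -0.07, with a 95% interval from -0.28 to 0.13 (adjusted p = 0.517, limma).

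Igfbp3 was at 23.4, 23.7 and 25.4 on D4, 157, 162 and 163 on D6, 220.2, 209 and 207 on D8 and 231, 226 and 229.5 on D10, beside 38.1, 25.7 and 31.6 FPKM in E12.5_GC. From D6 on, all libraries lay above E12.5_GC. The rise from D4 to D6 was 2.69 ± 0.10, adjusted p = 5.59e-11, limma. Against E12.5_GC, Igfbp3 was higher on D6 (2.32 ± 0.10, adjusted p = 4.36e-11, limma), D8 (2.72 ± 0.10, adjusted p = 8.18e-12, limma) and D10 (2.83 ± 0.10, adjusted p = 3.94e-12, limma), where its mean FPKM was 7.19-fold that of E12.5_GC.

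Igfbp7 was at 10.9, 10.4 and 9.56 on D4, 22.8, 20.5 and 20.7 on D6, 40.5, 39.5 and 36.3 on D8 and 89.6, 85.1 and 85.4 on D10, beside 10.6, 14.1 and 9.76 FPKM in E12.5_GC, which overlapped D4 and no later day. It rose from D8 to D10 (1.14 ± 0.10, adjusted p = 1.71e-06, limma). Igfbp7 also rose in the steps before (0.99 ± 0.10, adjusted p = 1.87e-06, limma, and 0.83 ± 0.10, adjusted p = 1.6e-05, limma). These were below 2-fold on log2(FPKM + 1), a scale that gives smaller differences than FPKM itself. That from D4 to D6 lay at the threshold. On D10 Igfbp7 was 7.55-fold E12.5_GC in mean FPKM (2.83 ± 0.10, adjusted p = 3.94e-12, limma).

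Igfbp5 was at 116, 105 and 112 on D4, 174, 191 and 176 on D6, 378, 342 and 343 on D8 and 477, 481 and 505 on D10. E12.5_GC, at 244, 166 and 261 FPKM, overlapped D6 and lay below D8 and D10. Igfbp5 was higher than E12.5_GC on D10 (1.15 ± 0.13, adjusted p = 1.73e-06, limma), and without E12.5_GC replicate 2 by 0.95, below 2-fold. Igfbp4 was at 118, 109 and 102 on D4, 185, 198 and 187 on D6, 239, 205 and 203 on D8 and 208, 185 and 222 on D10, and E12.5_GC at 226, 261 and 194 FPKM overlapped every day but D4. Igfbp4 was lower than E12.5_GC on D4 (-1.03 ± 0.11, adjusted p = 6.79e-07, limma), below 2-fold without E12.5_GC replicate 2 (-0.93) or D4 replicate 3 (-0.98).

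Igfbp2 had the highest mean FPKM of the members on every day, at 448, 444 and 395 on D4, 453, 467 and 453 on D6, 389.9, 394 and 371 on D8 and 664, 548 and 634 on D10, although on D8 its libraries overlapped those of Igfbp5. All lay above E12.5_GC, at 232, 331 and 200.2 FPKM. On D10 Igfbp2 was higher by 1.30 ± 0.14, adjusted p = 1.46e-06, limma, and on D6 it differed by 0.88 ± 0.14, adjusted p = 8.38e-05, limma, below 2-fold.

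Neither receptor reached 2-fold in these comparisons. Igf1r was at 7.30 to 8.38 FPKM in the 12 V580 libraries, and E12.5_GC, at 6.24, 4.53 and 9.10, spanned that range. Between neighbouring days Igf1r differed by 0.14, -0.09 and -0.07, with 95% intervals from -0.16 to 0.45, -0.40 to 0.22 and -0.37 to 0.24 (adjusted p of 0.441 or more, limma). Igf2r was at 19.9, 18.1 and 19.9 on D4, 27.4, 29.0 and 27.7 on D6, 28.1, 29.8 and 29.7 on D8 and 41.7, 44.8 and 42.1 on D10. E12.5_GC, at 34.1, 21.1 and 40.6 FPKM, spanned D6 and D8 and lay below D10.

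**Figure D2:**
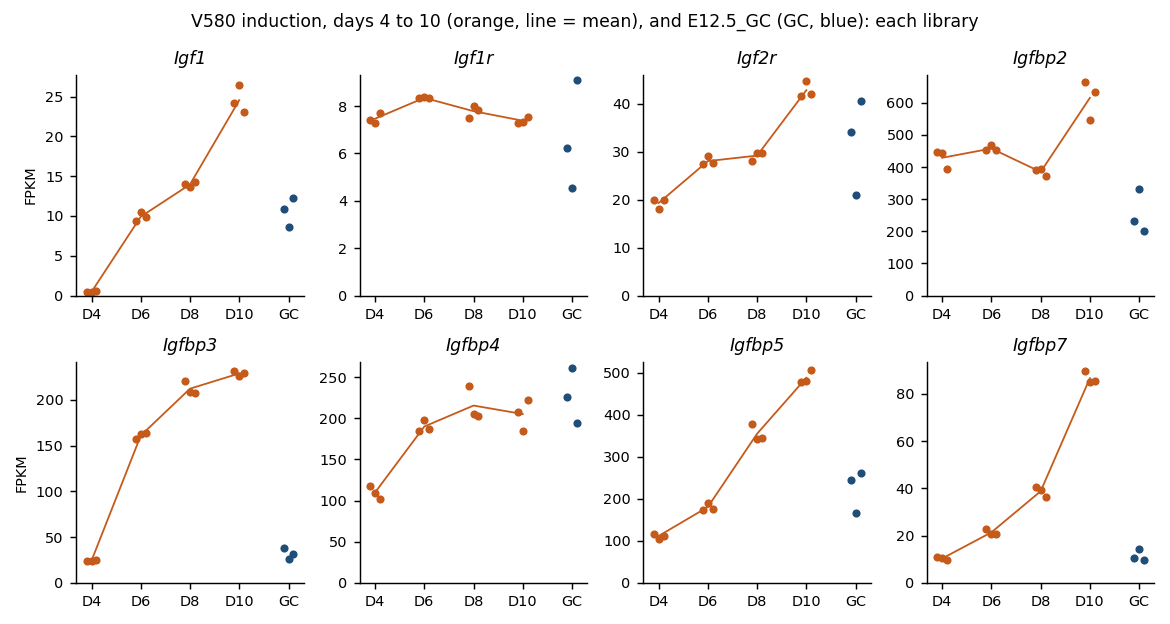
FPKM (vertical axes from 0) of the 8 members in the 3 libraries of each V580 day and in the 3 E12.5_GC libraries (GC) as points, with a line through the day means. Igf1 on D6 lay within the E12.5_GC range, and Igfbp3 lay above it from D6 on.

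Of the 8 members, 2 rose from D4 to D6, while 5.08% of 11512 genes were called (3.41% higher). Between D6 and D8, 0 were called (2.55% of genes), and 4 passed an unadjusted p below 0.05 in limma. From D8 to D10, 1 rose (1.29% of genes called, 0.973% higher). By the adjusted p alone, 6, 4 and 5 members passed in these steps, all higher on the later day, beside 44.9%, 41.1% and 34.5% of genes. Against E12.5_GC, 2 members were lower on D4 (20.4% of genes called, 11.3% lower). On D6, 1 was higher (15.2%, 7.06% higher), on D8, 2 were (13%, 6.9% higher) and on D10, 5 were (16.4%, 9.16% higher). With no fold threshold, 6, 4, 5 and 6 members passed, beside 71.6%, 67%, 63.2% and 69.5% of genes. These comparisons share the E12.5_GC libraries. Without E12.5_GC replicate 2, Igfbp2 (1.08) and Igfbp7 (1.00) also reached 2-fold on D6.

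Markers of other cells moved with the days. The sum of 5 interstitial markers was 66.9 to 78 FPKM on D4, 173 to 181 on D6, 506 to 643 on D8 and 1300 to 1610 on D10, beside 217 to 239 in E12.5_GC. That of 5 endothelial markers was 1.53 to 1.56 FPKM on D4, 20.1 to 21.2 on D6, 48.1 to 50.1 on D8 and 54.1 to 55.1 on D10, beside 48.3 to 76.6 in E12.5_GC. That of 5 mesothelial markers was 172 to 200 FPKM on D4, 273 to 281 on D6 and 375 to 412 on D8 and D10, beside 61 to 73.4 in E12.5_GC. That of 4 smooth muscle markers was 126 to 654 FPKM over the days and 18.6 to 24.3 in E12.5_GC, and that of 6 granulosa markers 52.1 to 132 and 566 to 711. None of these markers was at 0 in these libraries. That of 3 erythroid markers was 1040 to 4430 FPKM in E12.5_GC and at most 0.739 on the days. Their part in the members' levels was not tested.

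Of the other pathway genes, 37 were tested over the days. Of all genes, 5.08% were called from D4 to D6, 2.55% from D6 to D8 and 1.29% from D8 to D10. From D4 to D6, 5 rose and 0 fell, led by Stc1, whose protein inhibits PAPPA proteases (2.24 ± 0.09, adjusted p = 1.61e-10, limma), and Igfbp6 (1.60 ± 0.11, adjusted p = 1.81e-08, limma). From D6 to D8, 4 rose, Igfbp6 by the most (2.25 ± 0.11, adjusted p = 1.63e-09, limma), and 1 fell, the RNA-binding protein gene Igf2bp1 (-1.13 ± 0.10, adjusted p = 6.88e-07, limma). From D8 to D10, 3 rose, led by the protease gene Pappa2 (1.90 ± 0.13, adjusted p = 9.27e-08, limma), and 1 fell, Stc1 (-1.17 ± 0.09, adjusted p = 6.42e-07, limma).

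Before these days, Igf1 was barely detected. It was at 0.00544 to 0.0585 FPKM in 14 of the 16 libraries of 24 h and 48 h, and at 0.154 and 0.123 in AM580_48h, below the 1 FPKM needed for a test. The other 7 members were tested over these 16 libraries.

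Between 24 h and 48 h the controls themselves differed in 3 binding proteins. From Con_24h to Con_48h, Igfbp2 went from 116 and 131 to 266 and 271 FPKM (1.12 ± 0.06, adjusted p = 3.91e-10, limma). Igfbp5 went from 0.254 and 0.479 to 1.62 and 2.30 FPKM (1.11 ± 0.12, adjusted p = 7.44e-07, limma), and Igfbp7 from 27.6 and 28.4 to 7.86 and 8.33 FPKM (-1.67 ± 0.05, adjusted p = 9.83e-13, limma). These were the 3 of 7 members called, 2 higher and 1 lower, beside 7.72% of 10644 genes (2.52% and 5.2%). By the adjusted p alone, 7 of 7 passed (66% of genes). Without Con_24h replicate 1 or Con_48h replicate 2 the difference of Igfbp5 was 0.99 or 0.94, below 2-fold.

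Igfbp2 was highest under AM580 alone at 48 h. It was at 266 and 271 in Con, 206 and 211 in Vc, 505 and 513 in AM580 and 249 and 276 in V580 FPKM. AM580 stood apart from the other groups, and the range of V580 held both Con libraries. AM580 differed from Con by 0.92 ± 0.06, adjusted p = 8.47e-09, limma, just below 2-fold, and V580 from AM580 by -0.96 ± 0.06, adjusted p = 8.17e-08, limma, also below 2-fold. V580 and Con differed by -0.04, with a 95% interval from -0.16 to 0.09 (adjusted p = 0.626, limma). At 24 h Igfbp2 was at 116 and 131 in Con, 142 and 129.9 in Vc, 105 and 109.5 in AM580 and 117 and 120.4 in V580 FPKM, with AM580 lowest. The AM580 effect differed between the times by 1.12 ± 0.08, adjusted p = 1.85e-07, limma. A test of the combination, added after the data were seen, gave a difference between the Vc effect with AM580 and without it of -0.59 ± 0.08, adjusted p = 0.00108, limma at 48 h and 0.01 ± 0.08, adjusted p = 0.999, limma at 24 h, both below 2-fold.

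Igfbp3 was highest under V580 and next under AM580 at 48 h, at 21.6 and 21.5 in Con, 20.7 and 19.4 in Vc, 41.1 and 39.8 in AM580 and 44.2 and 47.3 in V580 FPKM. The groups with and without AM580 did not overlap. V580 was higher than Con (1.05 ± 0.04, adjusted p = 7.17e-11, limma), while AM580 differed by 0.88 ± 0.04, adjusted p = 5.85e-10, limma, below 2-fold. At 24 h the order was another, at 13.7 and 13.7 in Con, 9.02 and 8.84 in Vc, 18.1 and 19.0 in AM580 and 12.2 and 12.3 in V580 FPKM, with Vc lowest and V580 below Con. The V580 effect differed between the times by 1.20 ± 0.06, adjusted p = 4.31e-09, limma.

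Igfbp5 was low in all 16 libraries. At 48 h it was at 1.62 and 2.30 in Con, 1.58 and 1.90 in Vc, 1.02 and 0.633 in AM580 and 0.233 and 0.201 in V580 FPKM, with V580 lowest, then AM580, and Con and Vc overlapping above them. V580 was lower than Con (-1.27 ± 0.12, adjusted p = 3.45e-07, limma), at 0.111 of its mean FPKM. V580 differed from AM580 by -0.58 ± 0.12, adjusted p = 0.00278, limma, below 2-fold on this scale, which understates differences at low FPKM. With a pseudocount of 0.1 that difference was -1.52 (adjusted p = 0.000806, limma). The V580 effect differed between the times by -1.07 ± 0.16, adjusted p = 0.000168, limma, and this was below 2-fold without Con_24h replicate 1 (-0.95) or Con_48h replicate 2 (-0.91).

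**Figure D3:**
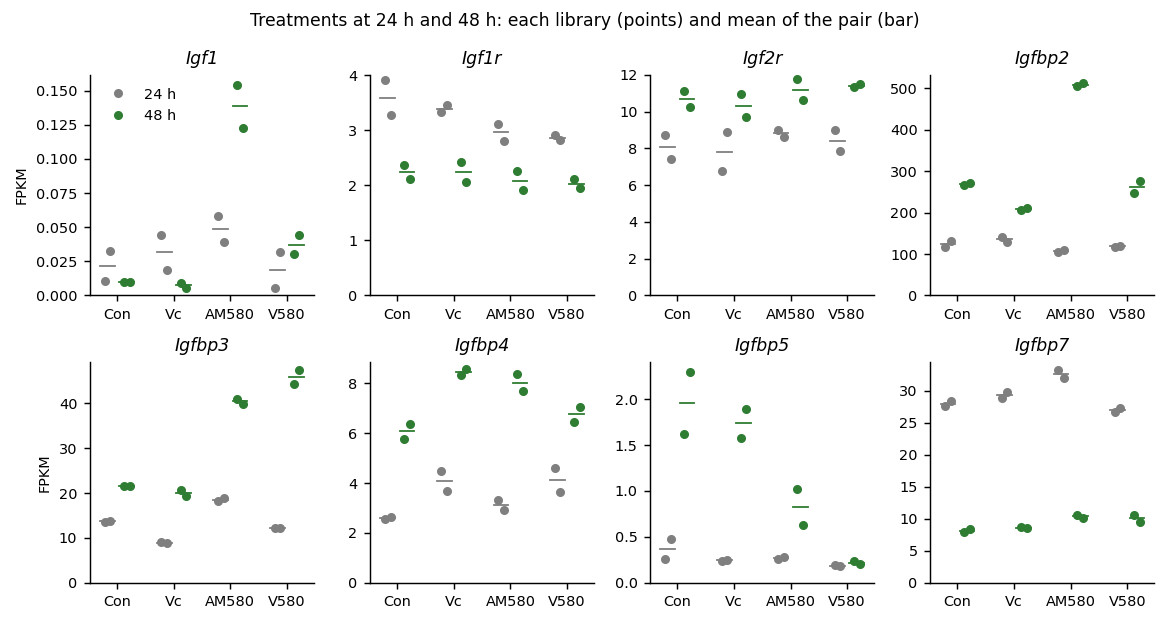
FPKM (vertical axes from 0) of the 8 members after 24 h and 48 h in the groups Con, Vc, AM580 and V580, with 2 libraries per group as points and their mean as a bar. At 48 h Igfbp2 was highest in AM580, Igfbp3 was higher in AM580 and V580 than in Con and Vc, and Igfbp5 was lowest in V580.

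Igfbp7 at 48 h was at 7.86 and 8.33 in Con, 8.70 and 8.57 in Vc, 10.6 and 10.2 in AM580 and 10.6 and 9.51 in V580 FPKM, and Igfbp4 at 5.78 and 6.37 in Con, 8.32 and 8.56 in Vc, 8.36 and 7.70 in AM580 and 6.45 and 7.07 in V580 FPKM. For Igfbp4 each compound alone stood above both together. It differed from Con by 0.42 ± 0.09, adjusted p = 0.00954, limma in Vc, 0.35 ± 0.09, adjusted p = 0.00511, limma in AM580 and 0.13 ± 0.09, adjusted p = 0.239, limma in V580. The added combination term was -0.64 ± 0.13, adjusted p = 0.0151, limma, and all of these were below 2-fold. The receptors differed little: Igf1r was at 2.36 and 2.11 in Con, 2.42 and 2.06 in Vc, 2.26 and 1.91 in AM580 and 2.10 and 1.95 in V580, and Igf2r at 11.1 and 10.3 in Con, 11.0 and 9.70 in Vc, 11.8 and 10.6 in AM580 and 11.3 and 11.5 in V580, in FPKM at 48 h. Against Con_48h the largest size of their differences was that of Igf1r under V580 (-0.10, 95% interval from -0.28 to 0.09, adjusted p = 0.352, limma).

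At 48 h, 2 of 7 members were called under V580 against Con, 1 higher and 1 lower, beside 3.18% of genes (1.84% and 1.34%). Called were 0 under AM580 (3.23% of genes), 0 under Vc (0.047%) and 0 between V580 and AM580 (0.263%). In these 3 comparisons 5, 3 and 4 members passed an unadjusted p below 0.05. By the adjusted p alone, limma called 3, 5, 2 and 3 members in the 4 comparisons, beside 57.1%, 57%, 12.4% and 19.2% of genes. At 24 h, 0 were called under Vc (0.0846% of genes), 0 under AM580 (0.404%), 0 under V580 (0.695%) and 0 between V580 and AM580 (0.0658%), while 3, 4, 3 and 4 passed an unadjusted p below 0.05. With no fold threshold these were 2, 3, 3 and 3, beside 13.6%, 14.8%, 29% and 14.8% of genes.

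Between the times, the effect of AM580 differed for 1 of 7 members (1.9% of genes called, 1.41% higher), that of V580 for 2, 1 in each direction (1.83%, 1.16% higher and 0.667% lower), and that of Vc for 0 (0.0376%, with 2 members at an unadjusted p below 0.05). With no fold threshold 3, 4 and 2 differed, beside 35%, 33.9% and 2.9% of genes. The combination term called 0 members at 48 h (0.122% of genes) and 0 at 24 h (0%), with 4 and 1 at an unadjusted p below 0.05. By the adjusted p alone it found 3 and 0, beside 3.61% and 0.0376% of genes. Comparisons within a time share their Con libraries.

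Markers of other cells moved with time and, in part, with the compounds. The sum of 5 pluripotency markers was 268 to 348 FPKM at 24 h and 97.3 to 123 at 48 h, and that of 4 smooth muscle markers 339 to 445 and 124 to 178. That of 5 interstitial markers was 79.8 to 106 FPKM at 24 h and 22.9 to 31.5 at 48 h, and that of 5 endothelial markers, of which Emcn was at 0 in 15 and Cdh5 in 3 of the 16 libraries, 16.9 to 27 and 5.19 to 8.4. At 48 h, 5 mesothelial markers summed to 24.5 to 27.7 FPKM in AM580, where Igfbp2 was highest, and to 11.5 to 15.4 in the other groups, and Upk1b of that list was at 0 in 3 of the libraries of both times. At 48 h, 5 germ cell markers summed to 209 to 223 FPKM in AM580 and V580 and 404 to 495 in Con and Vc. The sum of 6 extraembryonic endoderm markers was 15.6 to 16 FPKM in AM580_48h, 7.32 to 8.69 in V580_48h and 2.63 to 3.92 in Con_48h and Vc_48h. Their part in the members' levels was not tested.

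Of the other pathway genes, 33 were tested in the treatments. Igf2 at 48 h was at 0.760 ± 0.00545 FPKM in Con (SD, n = 2), 0.352 ± 0.0858 in Vc, 3.43 ± 0.477 in AM580 and 1.07 ± 0.0863 in V580. It rose under AM580 (1.33 ± 0.09, adjusted p = 1.97e-08, limma) and was lower in V580 than in AM580 (-1.09 ± 0.09, adjusted p = 1.58e-06, limma). Grb10, an adaptor that dampens receptor signalling, rose under AM580 (1.12 ± 0.06, adjusted p = 4.78e-10, limma) and under V580 (1.10 ± 0.06, adjusted p = 5.7e-10, limma). These were the 2 of 33 called under AM580, the 1 called under V580 and the 1 called between V580 and AM580, beside 3.23%, 3.18% and 0.263% of all genes.

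Among the 5 binding proteins that are members, the make-up of transcripts changed along the induction. Igfbp6, which is not a member and rose from D4 to D6 and from D6 to D8, is outside the sums and shares given here. Of the summed FPKM of the 5 Igfbp genes, a scale per length, Igfbp2 held 73.4% ± 1.33 in Con_24h (SD, n = 2), 87.7% ± 0.209 in Con_48h, 89.5% ± 0.407 in AM580_48h and 80.6% ± 0.685 in V580_48h. Its share was 62.6% ± 1.40 on D4 (SD, n = 3), 45.3% ± 0.366 on D6, 31.9% ± 1.20 on D8 and 37.8% ± 1.92 on D10, beside 33.7% ± 6.85 in E12.5_GC. The sum went from 168 ± 11.3 FPKM in Con_24h through 684 ± 37.2 on D4 to 1624 ± 85.6 on D10, beside 748 ± 50.5 in E12.5_GC. On D6 Igfbp3 held 15.9% ± 0.350 of it and Igfbp4 18.8% ± 0.220, against 4.28% ± 0.958 and 30.2% ± 2.39 in E12.5_GC.

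In the GSC stages, with counts divided by exon length (RPKM), Igfbp5 held 38.1% ± 2.66 and Igfbp4 31.6% ± 0.517 of the sum at E12.5 (SD, n = 2). Igfbp2 had its largest share at E13.5 (40.6% ± 1.95) and Igfbp5 at E16.5 (53.2% ± 1.57). At P6w Igfbp7 held 37.0% ± 0.341, against 2.28% ± 0.00439 at E12.5, in a sum of 68.5 ± 7.28 RPKM, against 263 ± 13.1 at E16.5. Igfbp6, which is outside this sum, had a mean of 24.7 RPKM at P6w, beside 25.3 for Igfbp7. The count and FPKM tables were scaled separately, and levels were not compared between them.

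**Figure D4:**
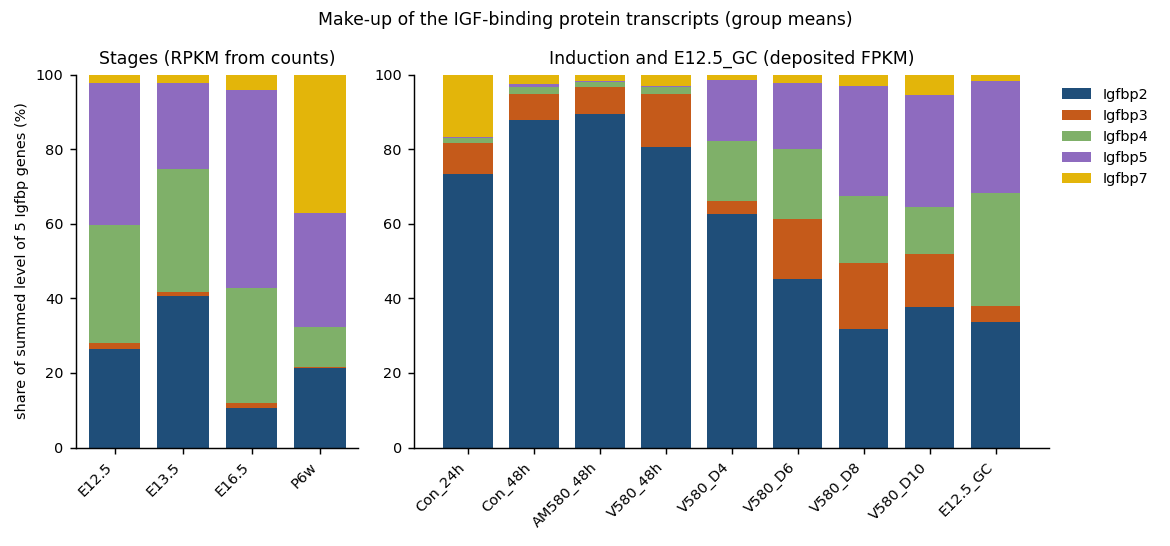
Mean share (%) of each of 5 Igfbp genes in their summed length-scaled level, by stage (RPKM from counts, n = 2) and in FPKM groups (n = 2 for 24 h and 48 h, n = 3 for days and E12.5_GC). Igfbp2 held most of the sum at 48 h and less from D4 on, and Igfbp7 reached 37.0% at P6w.

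In single cells of day 6, the members differed in level between clusters. The 10x table held 15412 barcodes, all distinct, of which 15315 were kept, with a median of 9281 UMIs (unique molecular identifiers). With 1 sample no test was made, free RNA in the droplets was not estimated, and the 95% intervals, exact Poisson for UMIs summed over cells and scaled to CPM, cover counting error only. Over all cells, Igfbp2 was at 530.1 (526 to 534) CPM, Igfbp5 at 444 (441 to 447), Igfbp4 at 266 (264 to 269), Igfbp3 at 114 (112 to 116) and Igfbp7 at 70.7 (69.4 to 72.0). Igf1r was at 112 (111 to 114), Igf2r at 82.6 (81.2 to 84.0) and Igf1 at 38.7 (37.7 to 39.6).

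The cells fell into 11 clusters, made without the 8 members. In clusters 1, 2, 3, 5, 6 and 9 the median was 9749.5 UMIs or more. The other 5 had medians of 1454 to 3015 UMIs and stayed unnamed. Cluster 1 (2929 cells) was mesothelial-like, with 3 of 5 markers at least 2-fold above the other cells, and cluster 5 (1298 cells) extraembryonic endoderm-like, with 5 of 6. Cluster 3 (1537 cells) was left unnamed, since 4 of 4 smooth muscle and 5 of 6 interstitial markers were high there. Its leading genes held the contractile genes Actg2, Myh11 and Acta2 and the matrix genes Lum, Col1a1, Col6a1, Col6a2 and Vcan. Cluster 2 (2093 cells) was led by the cell cycle genes Aspm and Mki67, cluster 6 (1052 cells) was led by Wfdc2, Cxcl15 and Stra8 and left unnamed, and cluster 9 (66 cells) was neuron-like, with 5 of 5. No cluster had more than 1 of 6 granulosa markers at 2-fold.

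Igfbp2 was highest in cluster 6, at 1112 (1097 to 1127) CPM, an interval that overlapped that of the shallow cluster 4, at 1101 (1066 to 1137). It was at 612 (604 to 619.7) in the mesothelial-like cluster, 304 (298 to 312) in cluster 3 and 238 (232 to 245) in the extraembryonic endoderm-like cluster. Igfbp5, its neighbour on the chromosome, was highest in the mesothelial-like cluster, at 809.8 (801 to 819). Next were the shallow cluster 4, at 743.0 (714.4 to 772.5), and cluster 2, at 570.4 (562.8 to 578.1). Igfbp5 stood at 382 (374 to 389.8) in cluster 3 and 259 (252 to 267) in cluster 6. The mesothelial-like cluster, with 19.1% of the cells, held 41.6% of all Igfbp5 UMIs. Its cells were deeper (median of 12096 UMIs, against 9281 in all cells), which also raises its share of UMIs.

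Igfbp3, Igfbp4 and Igfbp7 were highest in cluster 3. Igfbp3 was at 238 (232 to 244) CPM there, 152 (148 to 156) in the mesothelial-like cluster and 44.3 (41.3 to 47.4) in cluster 6. Igfbp4 was at 406 (398 to 414), 345 (339 to 351) and 166 (161 to 172) in the same order, and Igfbp7 at 189 (184 to 195), 50.2 (47.9 to 52.5) and 112 (108 to 117). For Igfbp7 alone of these, cluster 6 stood above the mesothelial-like cluster. Cluster 3, with 10.0% of the cells, held 39.0% of the Igfbp7 UMIs. Its cells were deeper (median of 14049 UMIs, against 9281 in all cells), which also raises its share of UMIs.

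The extraembryonic endoderm-like cluster had the lowest levels of Igf1 and of the 5 binding proteins among the 6 deeper clusters, although it was the deepest, with a median of 18133 UMIs. It was at 6.65 (5.66 to 7.76) CPM for Igf1, 25.4 (23.4 to 27.4) for Igfbp3, 141 (136 to 146) for Igfbp4, 76.6 (73.1 to 80.2) for Igfbp5 and 10.4 (9.12 to 11.7) for Igfbp7. For Igfbp3 and Igfbp4 these intervals overlapped those of cluster 9 (66 cells), at 36.1 (22.9 to 54.1) and 171 (140 to 206). Igf1 was at 52.2 (49.9 to 54.6) in the mesothelial-like cluster and 54.3 (51.4 to 57.4) in cluster 3, with overlapping intervals. Levels as low as that of Igf1 in the extraembryonic endoderm-like cluster cannot be told apart from free RNA and are not read as expression.

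Igf1r was more even, at 119 to 137 CPM in clusters 1, 2, 3, 6 and 9, and at 59.3 (56.3 to 62.5) in the extraembryonic endoderm-like cluster. Igf2r was at 121 (117 to 126) in cluster 3, 90.7 (87.7 to 93.8) in the mesothelial-like cluster and 52.8 (49.6 to 56.2) in cluster 6. Over all 11 clusters, both receptors were highest in cluster 4, a shallow cluster led largely by mitochondrial genes, at 236 (220.3 to 253) for Igf1r and 230.2 (214 to 247) for Igf2r.

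**Figure D5:**
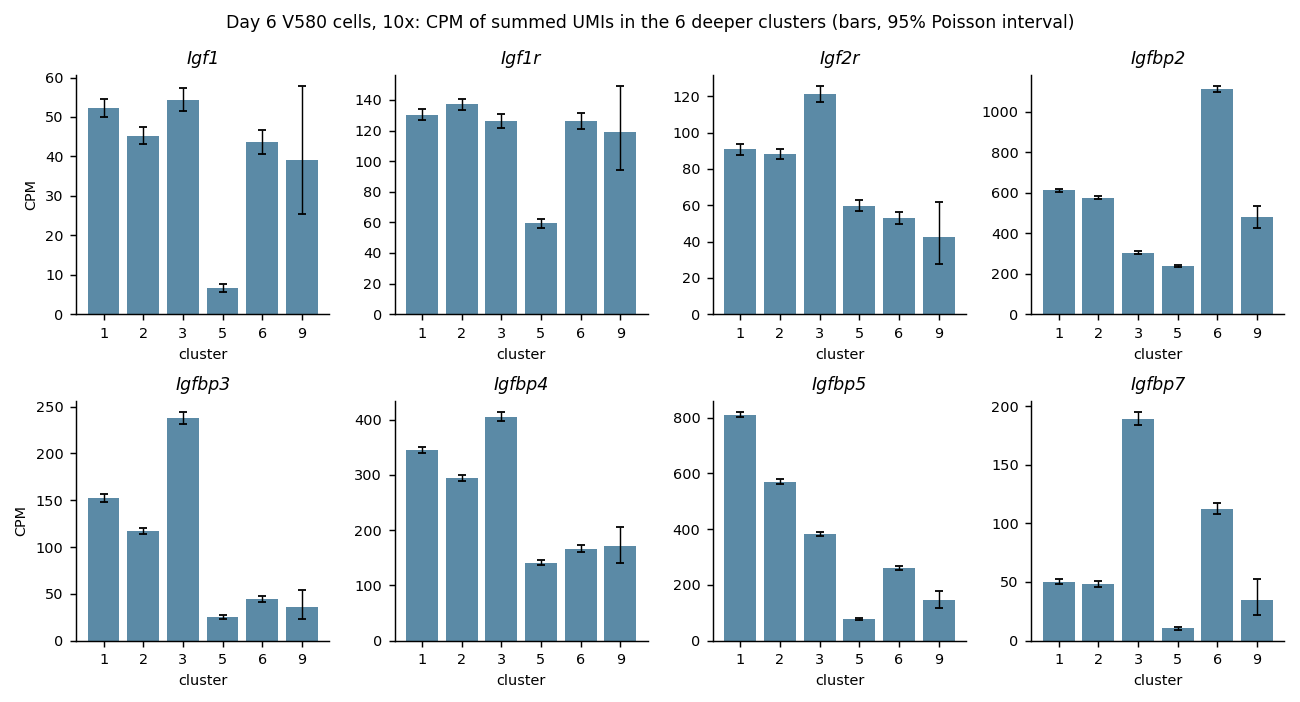
CPM of summed UMIs (vertical axes from 0) of the 8 members in the 6 deeper clusters of 1 V580 day 6 10x sample, with exact Poisson 95% intervals that cover counting error only. Clusters 1, 5 and 9 were mesothelial-like, extraembryonic endoderm-like and neuron-like. Igfbp2 peaked in cluster 6, Igfbp5 in cluster 1, and Igfbp3, Igfbp4 and Igfbp7 in cluster 3.

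Over the 31 FPKM libraries, the members ran together to different degrees. Pearson correlations of log2(FPKM + 1) were 0.988 between Igfbp4 and Igfbp5, 0.939 between Igf1 and Igf2r and 0.851 between Igf1 and Igfbp3, but 0.081 between Igfbp2 and Igfbp7. The libraries share the step from the early to the later times, so these values are a description. Among 11819 genes, those most like each receptor or ligand were Col14a1, Tmem151a and Unc5c for Igf1 (0.989 to 0.99), Plekhg2, Fosl2 and Elf2 for Igf1r (0.966 to 0.976) and Wwtr1, Dchs1 and Rassf8 for Igf2r (0.979 to 0.983). For the binding proteins they were Srebf1, Pkdcc and Dact3 for Igfbp2 (0.917 to 0.927), Frzb, Shank2 and P3h2 for Igfbp3 (0.959 to 0.966), Nrep, Zbtb5 and Mmp23 for Igfbp4 (0.991 to 0.993), Mmp23, Nlgn2 and Sft2d2 for Igfbp5 (0.99 to 0.993) and Tmem104, Filip1l and Loxl2 for Igfbp7 (0.953 to 0.966). Igfbp2 had the lowest of these highest correlations.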

How the data were processed

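Whole-number counts per gene were deposited by the authors for the GSC stages (mm10; HISAT2 and featureCounts), FPKM per gene for the other bulk libraries (RSEM is among the tools of the submitters' processing notes; the tool behind FPKM is not given in the sources used here) and UMI counts for the 10x sample (Cell Ranger, mm10). Counts were filtered (filterByExpr), TMM-normalized and tested with edgeR 4.0.16 (quasi-likelihood) over 8 libraries, called at a Benjamini-Hochberg adjusted p below 0.05. For FPKM, genes reaching 1 in 3 (days) or 2 (treatments) libraries were tested on log2(FPKM + 1) with limma 3.58.1 (trend), 1 model for days and 1 for treatments, called at an adjusted p below 0.05 and 2-fold. From the 10x barcodes, those with under 200 genes or over 40% mitochondrial counts were dropped, and the rest were clustered with scanpy 1.11.5 (2000 variable genes, 20 components, Leiden resolution of 0.5), with no doublet removal. A cluster in which more than 50% of the markers of exactly 1 list were at least 2-fold high took its name, a rule set with the clusters known. The cell cycle list gave no name. Shallow clusters with no marker of the list among their leading genes stayed unnamed. Cluster 10, with 3 of 5 pluripotency markers high, was one of these. R 4.3.3 and Python 3.11.15 were used.

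The smallest FPKM values correspond to an apparent 16400000 to 28300000 fragments per library. Alternatives were DESeq2 1.42.0, other scalings, filters, pseudocounts and fold thresholds, a replicate term, a length term from GENCODE vM21 and leaving out each library. Code was tested on simulated data. All members were named, and of the other pathway genes at most the 2 largest rises and falls per comparison. Members and lists were chosen with earlier results of these data known. A germ cell table was not used here.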

Additional observations from a re-analysis of the deposited data

Results flagged for a closer look

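For 3 members the effect of a compound differed between 24 h and 48 h, as a limma interaction term of 2-fold or more that passed the adjusted p. The effect of AM580 on Igfbp2 was higher at 48 h by 1.12 ± 0.08, with means of 0.87 of Con at 24 h and 1.9 of Con at 48 h. The effect of V580 on Igfbp3 was higher at 48 h by 1.20 ± 0.06, with 0.898 of Con at 24 h and 2.13 at 48 h. The effect of V580 on Igfbp5 was lower at 48 h (-1.07 ± 0.16), with 0.511 of Con at 24 h, where both groups were below 0.5 FPKM, and 0.111 at 48 h. Each group had n = 2 libraries.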

How the results depend on the processing

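Of 2232 member values under alternatives, 2036 kept direction and side of the threshold, 31 lost a call, 86 gained one and 79 changed sign, 0 of them called in the reported fits. Of the sign changes, Igf1 for E13.5 against E12.5 passed the test once its sign had changed, under the length term. With no fold threshold, members called were 6 (D6 against D4), 4 (D8 against D6), 5 (D10 against D8), and 6, 4 and 5 for D4, D6 and D8 against E12.5_GC. In the treatments they were 2 for Vc at each time, 3 for AM580 and for V580 at 24 h, 3 for V580 against AM580 at each time, 5 for AM580_48h, 7 for Con_48h against Con_24h, 2, 3 and 4 for the time differences of Vc, AM580 and V580, and 3 for the combination at 48 h. A 2-fold threshold on counts left 1 (E13.5 against E12.5), 2 (E16.5 against E12.5) and 5 (E16.5 against E13.5). A length term gave 3 for D6 against E12.5_GC, 1 for D8 against D6, and Igf1 at 0.49 for E13.5 against E12.5, with or without the replicate block. A pseudocount of 0.1 gave 1 each for AM580_48h and for V580 against AM580 at 48 h. Deviations of same-numbered libraries had correlations of -0.431 to 0.386, with medians of 0.028 (days), 0.006 (stages) and 0.016 (treatments). The replicate block left every count of called members as it was, such as 5 for E13.5 against E12.5. Counts of called members here and below show how calls depend on the settings and are not read as results about the members.

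Leaving out 1 library gave counts of called members of 1 to 3 (D4 against E12.5_GC), 1 to 3 (D6 against E12.5_GC), 4 to 5 (D10 against E12.5_GC), 2 to 3 (D6 against D4), 0 to 1 (D8 against D6), 2 to 4 (Con_48h against Con_24h), 0 to 1 (V580_48h against AM580_48h), 1 to 2 (the V580 time difference), 4 (E13.5 against E12.5), 4 to 6 (E16.5 against E12.5) and 7 to 8 (E16.5 against E13.5). Igf1r passed for E16.5 against E12.5 without E16.5 replicate 1 (0.30 (adjusted p = 0.0424, edgeR)) or 2 (0.30 (adjusted p = 0.043, edgeR)), and Igfbp4 no longer did without E12.5 replicate 1 (0.44 (adjusted p = 0.0895, edgeR)). Calls were gained by Igfbp5 for D4 against E12.5_GC without E12.5_GC replicate 2 (-1.17) or D4 replicate 1 (-1.01), Igfbp7 for D6 against D4 without D4 replicate 1 (1.03), D6 replicate 2 (1.01) or D6 replicate 3 (1.01), Igfbp5 for D8 against D6 without D6 replicate 2 (1.01), Igfbp4 for Con_48h against Con_24h without Con_48h replicate 1 (1.03) and Igfbp2 for V580 against AM580 at 48 h without V580_48h replicate 2 (-1.03). Uncalled differences that changed sign ranged from -0.0285 to 0.406 (Igf1r, D10 against E12.5_GC), -0.0138 to 0.42 (Igf1r, D4 against E12.5_GC), -0.23 to 0.0147 (Igfbp7, D4 against E12.5_GC), -0.205 to 0.0328 (Igf1, D6 against E12.5_GC), -0.396 to 0.0611 (Igf2r, D6 against E12.5_GC), -0.34 to 0.117 (Igf2r, D8 against E12.5_GC), -0.113 to 0.0222 (Igf1, E13.5 against E12.5) and -0.0735 to 0.0144 (Igfbp7, E13.5 against E12.5).

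In the 10x cells, leaving out the 5% with the most UMIs gave levels, as CPM, of 42.0 (Igf1), 116.5 (Igf1r), 85.77 (Igf2r), 537.3 (Igfbp2), 124.7 (Igfbp3), 279.1 (Igfbp4), 488.7 (Igfbp5) and 72.24 (Igfbp7). A limit of 10% mitochondrial counts gave 110.1 (Igf1r), 79.69 (Igf2r), 515.6 (Igfbp2) and 439.2 (Igfbp5), and a minimum of 1000 genes 535.0 (Igfbp2) and 450.1 (Igfbp5). Over all genes, a 2-fold threshold took the stage calls from 7530 to 2785 for E13.5 against E12.5, and a pseudocount of 0.1 took D10 against D8 from 149 to 346. The causes were not tested. Few reads lay behind Igfbp3 at P6w and Igf1 before D4, which limits their precision.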
